A study of Mus musculus with 53 samples.

Results

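The cell cycle genes described here are 49 listed mouse genes whose products copy the genome or divide the cell, chosen by symbol in the annotation of both array types and read from the brightest probe set of each gene. Of the 49, 48 were measured in each table, 21 that act in S phase and 27 that act in G2 and mitosis, out of 19938 named genes in one table and 18194 in the other. Ccnb1 is not analysed here, since no probe set was annotated to it alone. Levels were followed over 7 ages of whole cornea, over embryonic bladder and dorsal skin, and over other embryonic organs.

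The study measured RNA of mouse epithelial organs on 53 arrays in 18 groups. Gene ST arrays, 3 in each group, held whole cornea of wild-type CB6 mice from 3 embryonic ages (E14.5, E15.5, E17.5; days of gestation) and 4 ages after birth (P3, P7, P14, P28; days), and E18.5 lung and trachea of wild-type CB6 embryos. A second table of 26 arrays of the older 3' type held dorsal skin of wild-type CB6 embryos at 3 ages (E14.5, E16.5, E18.5), wild-type CB6 bladder at the first 2 of these, bladder of E18.5 Get1 +/- mice, and, from wild-type CB6 embryos at E18.5, esophagus, proximal small intestine and stomach. E14.5 bladder had 2 arrays and each other group 3. The only E18.5 bladders carry 1 mutated allele of Get1, a grainyhead-like transcription factor. The series text says that arrays of cornea, bladder and the oldest skin had been made for the laboratory's previous work. No label says whether a group's arrays stem from separate animals, so p-values here measure the spread between arrays, which may be technical, and the number of arrays limits the precision. All levels are log2(intensity + 16) after quantile normalization within a table, a gene was called when its adjusted p in limma was under 0.05 and its change at least 2-fold, and no value was set across the 2 tables.

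A cell commits to division when cyclin-dependent kinases release E2F transcription factors from pocket proteins, and E2F then turns on the genes that license origins, unwind and copy DNA and make nucleotides. A later wave of genes, turned on by the MuvB complex with B-Myb and Foxm1, drives entry into mitosis, builds the spindle and kinetochores, checks chromosome attachment and separates the daughter cells. Transcripts of both waves are scarce in cells that have left the cycle, and in stratified epithelia the dividing cells lie mostly in the basal layer. In whole tissue, fewer dividing cells and less of these RNAs per cell cannot be told apart.

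Promoters were available for 40 of the 49 genes in RefSeq (GRCm38.p6), as 300 bases from 250 before to 50 after the start. There were 18 promoters of 17 S phase genes and 24 of 23 mitosis genes, and Aurkb, Ccna2, Ccne2, Foxm1, Gins1, Gins2, Kif20a, Mcm4 and Tpx2 had no entry. The windows below hold the 200 bases before the start. They belong to S phase genes with an E2F motif in them and mitosis genes with a CHR motif in the last 100 of them, and among those to the 3 S phase and 4 mitosis genes with the largest falls in cornea from E14.5 to E15.5. Matches after the start, as in Bub1, Ttk, Ndc80 and Ccnb2, lie outside these windows. Capitals mark matches on either strand to E2F motifs (TTTCCCGC, TTTCGCGC, TTTGCCGC or TTTGGCGC), to the cell cycle genes homology region, CHR (TTTGAA or TTCGAA), and to CCAAT, the letters bound by NF-Y. Overlapping matches run together. Cdc6 lies at chr11:98907951-98908150 on the plus strand, Mcm6 at chr1:128359706-128359905 on the minus strand and Mcm7 at chr5:138171884-138172083 on the minus strand. Kif11 lies at chr19:37376182-37376381 on the plus strand. Cdk1 at chr10:69352913-69353112, Mki67 at chr7:135716380-135716579 and Top2a at chr11:99024190-99024389 lie on the minus strand.
Cdc6: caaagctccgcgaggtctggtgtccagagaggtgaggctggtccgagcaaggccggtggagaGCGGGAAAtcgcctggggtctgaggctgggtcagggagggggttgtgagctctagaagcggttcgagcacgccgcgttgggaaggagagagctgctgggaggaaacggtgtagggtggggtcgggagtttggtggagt
Mcm6: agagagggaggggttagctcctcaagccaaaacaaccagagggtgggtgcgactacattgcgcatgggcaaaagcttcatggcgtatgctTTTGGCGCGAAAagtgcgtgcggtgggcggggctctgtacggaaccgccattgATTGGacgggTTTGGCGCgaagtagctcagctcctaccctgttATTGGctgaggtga
Mcm7: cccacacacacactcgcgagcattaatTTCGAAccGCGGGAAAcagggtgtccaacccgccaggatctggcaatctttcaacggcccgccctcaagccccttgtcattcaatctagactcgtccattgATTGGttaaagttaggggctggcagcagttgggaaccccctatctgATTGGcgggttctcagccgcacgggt
Kif11: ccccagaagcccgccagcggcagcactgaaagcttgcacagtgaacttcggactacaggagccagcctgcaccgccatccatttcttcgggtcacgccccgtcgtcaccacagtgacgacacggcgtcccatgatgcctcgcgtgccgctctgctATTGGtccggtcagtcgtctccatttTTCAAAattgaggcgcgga
Cdk1: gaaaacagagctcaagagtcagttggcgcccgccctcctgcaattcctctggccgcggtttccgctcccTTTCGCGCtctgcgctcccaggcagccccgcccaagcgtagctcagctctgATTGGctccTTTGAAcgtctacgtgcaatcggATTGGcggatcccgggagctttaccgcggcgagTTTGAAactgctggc
Mki67: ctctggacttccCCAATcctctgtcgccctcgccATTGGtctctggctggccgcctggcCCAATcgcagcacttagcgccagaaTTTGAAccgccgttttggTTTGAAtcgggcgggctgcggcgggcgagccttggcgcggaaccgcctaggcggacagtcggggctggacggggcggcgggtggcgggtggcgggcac
Top2a: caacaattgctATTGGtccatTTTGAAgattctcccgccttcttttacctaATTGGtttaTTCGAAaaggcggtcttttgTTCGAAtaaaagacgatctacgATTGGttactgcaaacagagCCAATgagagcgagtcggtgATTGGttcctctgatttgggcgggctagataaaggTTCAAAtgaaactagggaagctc

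The S phase and mitosis promoters differed in which letters they held. An E2F motif was in 6 of 18 S phase promoters (33.3%) and in 1 of 24 mitosis promoters (4.17%), against 2.26% of all 32851 promoters. A CHR motif was in 3 of 18 S phase promoters (16.7%) and in 19 of 24 mitosis promoters (79.2%), against 19.2% of all. Within 50 bases of the start, CHR was in 1 of 18 S phase promoters (5.56%) and in 17 of 24 mitosis promoters (70.8%), against 5.31% of all promoters. CCAAT was in 61.1% of S phase promoters and 79.2% of mitosis promoters, against 37.4% of all. Other listed genes of the same phases, which are no members, showed the same order, with E2F in 13 of 45 S phase promoters (28.9%) and 7 of 57 mitosis promoters (12.3%), and CHR in 15.6% and 68.4%. A match is a description of the letters and does not show that a factor binds there.

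Members with and without the motif of their phase had similar median changes in cornea. From E14.5 to E15.5, the median log2 change was -1.37 for 6 S phase genes with an E2F motif and -1.24 for 11 without. It was -1.91 for 18 mitosis genes with a CHR motif and -1.96 for 4 without.

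Several groups of arrays stood apart from their labels or from each other, and the values are given here once. The E14.5 cornea arrays held little of the corneal keratin Krt12, at 5.92 to 6.04 against at least 11.49 at later ages and a table median of 8.12. They also held lens, red cell and retina RNA. The summed intensity of 11 lens genes was 11609 to 131231 at E14.5 and 1767 to 2472 at E15.5, that of 9 red cell genes was 35552 to 53741 and 1426 to 3028, and that of 8 retina genes was 1343 to 8045 and 722 to 962. At E14.5 10 of the lens, 5 of the red cell and 2 of the retina genes were above the table median. All 11 measured thymocyte genes were above the table median in the arrays labelled lung, with a summed intensity of 97371 to 98856 against 1315 to 1854 in the other groups, while the lung gene Sftpc was at 6.68 to 6.91, and 3 of 8 lung genes were above the table median. They are called the arrays labelled lung. In the 3' table, control probe sets split the arrays in 2 sets. In 17 arrays (bladder, esophagus, stomach and E14.5 skin) the 5' to 3' ratio of actin was 0.0787 to 0.284, and in 9 (small intestine and skin at E16.5 and E18.5) it was 0.729 to 0.963, although the labels give 1 labelling protocol for all. Arrays correlated at 0.879 to 0.985 and 0.763 to 0.990 within these sets and at 0.614 to 0.799 between them.

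In whole cornea the cell cycle genes had their highest mean level at E14.5 for all 48 members and their lowest at E15.5 for 45 of 48. Single arrays of E15.5 and later ages overlapped. The median over the members, each minus its mean over the table, was -0.51, -1.24 and -0.94 at E15.5 and -0.59 in P7 replicate 3. Of the 48, 42 fell at least 2-fold from E14.5 to E15.5 and 6 rose at least 2-fold from E15.5 to E17.5, a count that was 0 without 1 of the E15.5 arrays, and none was called in a later step between neighbouring ages. In an F test over the 7 ages, 42 of 48 members were called, 16 of 21 S phase and 26 of 27 mitosis genes, against 21.7% of all genes. Without the E14.5 arrays, a test added after the data were seen, 18 of 48 were called, 6 S phase and 12 mitosis genes, against 16.1% of all genes.

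**Figure D1:**
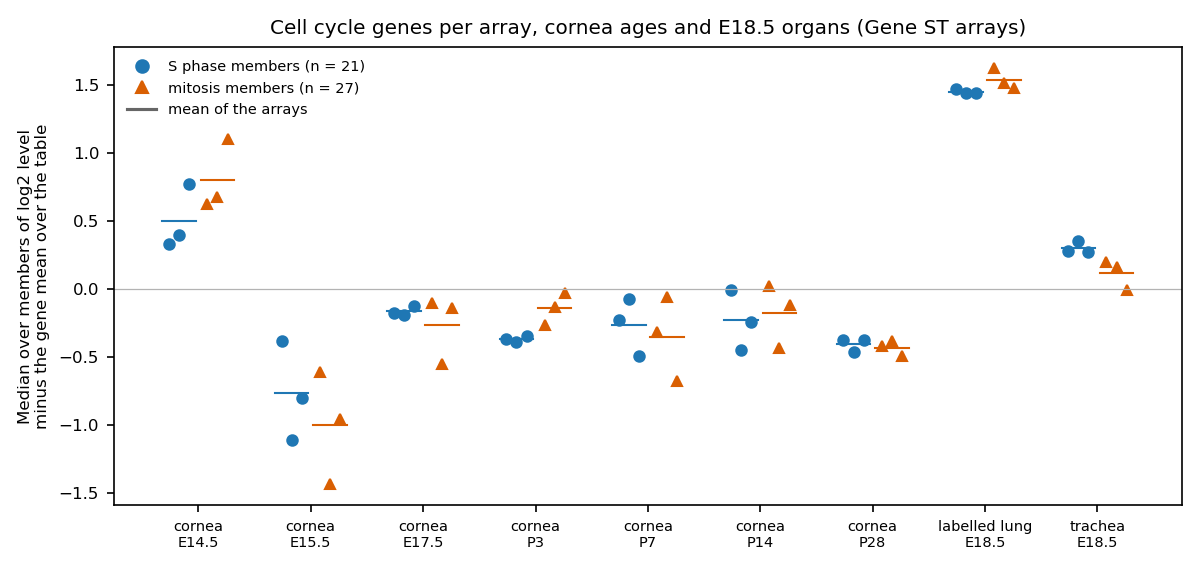
Median over the members of each gene's log2 level minus its mean over the Gene ST table, for S phase and mitosis genes in each array. E14.5 cornea arrays sit between 0.33 and 1.11, E15.5 arrays between -0.38 and -1.43, and the arrays labelled lung between 1.44 and 1.63.

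From E14.5 to E15.5 all 48 members were lower, with adjusted p under 0.05 in limma for each, against 11.4% of all genes lower by that rule, and no member's arrays overlapped between the ages, which held for 40.7% of all genes. At the 2-fold limit 42 of 48 members fell, against 2.26% of all genes called lower, and none rose, against 5.3%. These were 15 of 21 S phase genes and all 27 mitosis genes. The median log2 change was -1.32 for S phase and -1.82 for mitosis genes, against -0.02 over all genes. Leaving out single arrays left 39 to 43 members called.

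The genes of entry into S phase had the smallest median change, -0.84 over 3 genes. Ccne2, a cyclin that activates Cdk2 at the start of S phase, had log2 levels of 8.91, 9.13 and 9.88 at E14.5 and of 8.04, 7.38 and 7.00 at E15.5. The change was -1.84 ± 0.29 (SE, n = 3 arrays an age; adjusted p = 4.6e-05 in limma). Ccne1, the other E cyclin gene, was at 8.65, 9.13 and 8.42 and then at 8.05, 7.80 and 7.83. All 3 later arrays lay under the earlier ones, but its change of -0.84 was short of 2-fold, as was that of the transcription factor E2f1 at -0.67.

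Among 11 licensing and helicase genes, 8 fell. Gins1, a subunit of the GINS complex of the active helicase, was at 9.53, 9.53 and 10.60 at E14.5 and at 7.96, 7.38 and 7.54 at E15.5, a fall of 2.26 ± 0.30 (SE, n = 3; adjusted p = 6.1e-06 in limma), the largest of this role. Cdc6, which loads the Mcm helicase on origins, was at 8.89, 8.65 and 9.19 at E14.5 and at 7.84, 6.28 and 6.08 at E15.5. Mcm6, a subunit of that helicase, was at 10.74, 10.72 and 11.17 and then at 9.78, 9.00 and 8.66. The ages were apart for all 3 genes, and replicate 1 was the highest of the E15.5 arrays. Cdc6 fell by 2.18 ± 0.29 and Mcm6 by 1.73 ± 0.20 on the log2 scale (SE, n = 3; adjusted p = 6.8e-06 and 1.4e-06 in limma). The 3 that were not called were Mcm2 at -0.84, Gins2 at -0.93 and Cdt1, Cdc6's partner in licensing, at -0.48, the smallest change of any member.

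Of 5 clamp and nucleotide supply genes 4 fell, with a median of -1.46 against -1.25 for the licensing and helicase genes. Rrm2, the small subunit of ribonucleotide reductase, which makes deoxynucleotides, was at 10.31, 10.56 and 10.93 at E14.5 and at 8.52, 7.67 and 8.49 at E15.5. That is a fall of 2.38 ± 0.19 on the log2 scale, or 5.21-fold (SE, n = 3; adjusted p = 6.4e-09 in limma), the largest among S phase genes. Thymidylate synthase, Tyms, fell by 1.87 the large subunit Rrm1 by 1.46 and Pcna, the sliding clamp of DNA polymerase, by 1.09. Thymidine kinase, Tk1, at 9.97, 9.71 and 9.63 and then at 9.13, 9.11 and 9.30, was lower in every later array, with a change of -0.59 that was not called. The replication checkpoint kinase Chek1 fell by 1.75 and the repair gene Brca1 by 1.32.

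Among mitosis genes the spindle checkpoint, which holds anaphase until chromosomes are attached, fell most, with a median of -2.25 over 3 genes. Bub1, its kinase at kinetochores, was at 10.13, 10.48 and 10.90 at E14.5 and at 8.65, 7.48 and 8.18 at E15.5. It fell by 2.40 ± 0.34 on the log2 scale, or 5.27-fold (SE, n = 3; adjusted p = 1.4e-05 in limma), the largest change of any member. Ttk was at 9.68, 9.75 and 10.15 and then at 7.83, 6.90 and 8.11, a fall of 2.25. In both genes E15.5 replicate 2 was the lowest array of the 7 ages.

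All 4 drivers of mitosis fell, from -2.13 (Ccnb2) to -1.23 (Foxm1, the transcription factor of this wave). Ccnb2, a B cyclin that activates Cdk1, was at 10.81, 11.01 and 10.98 at E14.5 and at 9.37, 8.03 and 8.99 at E15.5. Cdk1, the mitotic kinase, was at 10.54, 10.64 and 11.15 and then at 9.33, 8.14 and 8.98. Their falls were 2.13 ± 0.22 and 1.96 ± 0.24 on the log2 scale (SE, n = 3; adjusted p = 1.7e-07 and 1.7e-06 in limma), with no array shared in range. Mki67, the Ki-67 antigen that coats mitotic chromosomes, fell by 1.94 and the DNA decatenating enzyme Top2a by 1.87, although the second probe set of Top2a changed by -0.12. The mitotic kinases Aurka and Plk1 fell by 1.42 and 1.24. Birc5, survivin of the passenger complex, was at 11.57, 11.52 and 11.82 and then at 9.90, 9.03 and 9.41, a fall of 2.19 ± 0.15 (SE, n = 3; adjusted p = 4.7e-10 in limma).

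The genes of kinetochores, spindle and mitotic exit completed the pattern. All 5 kinetochore genes fell, with a median of -1.94, led by Ndc80 and Nuf2 of the microtubule-binding complex at -2.24 and -2.11. Of the motors, Kif11, which pushes spindle poles apart, was at 10.53, 10.57 and 10.95 and then at 9.02, 7.96 and 8.38, a fall of 2.23 ± 0.25 (SE, n = 3; adjusted p = 8.1e-07 in limma). Kif20a, a motor of cytokinesis, was at 9.07, 9.22 and 9.56 and then at 8.49, 7.84 and 8.44, and its change of -1.03 was the smallest among mitosis genes. Cdc20 and Ube2c, which serve the anaphase-promoting complex, fell by 1.75 and 1.66.

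**Figure D2:**
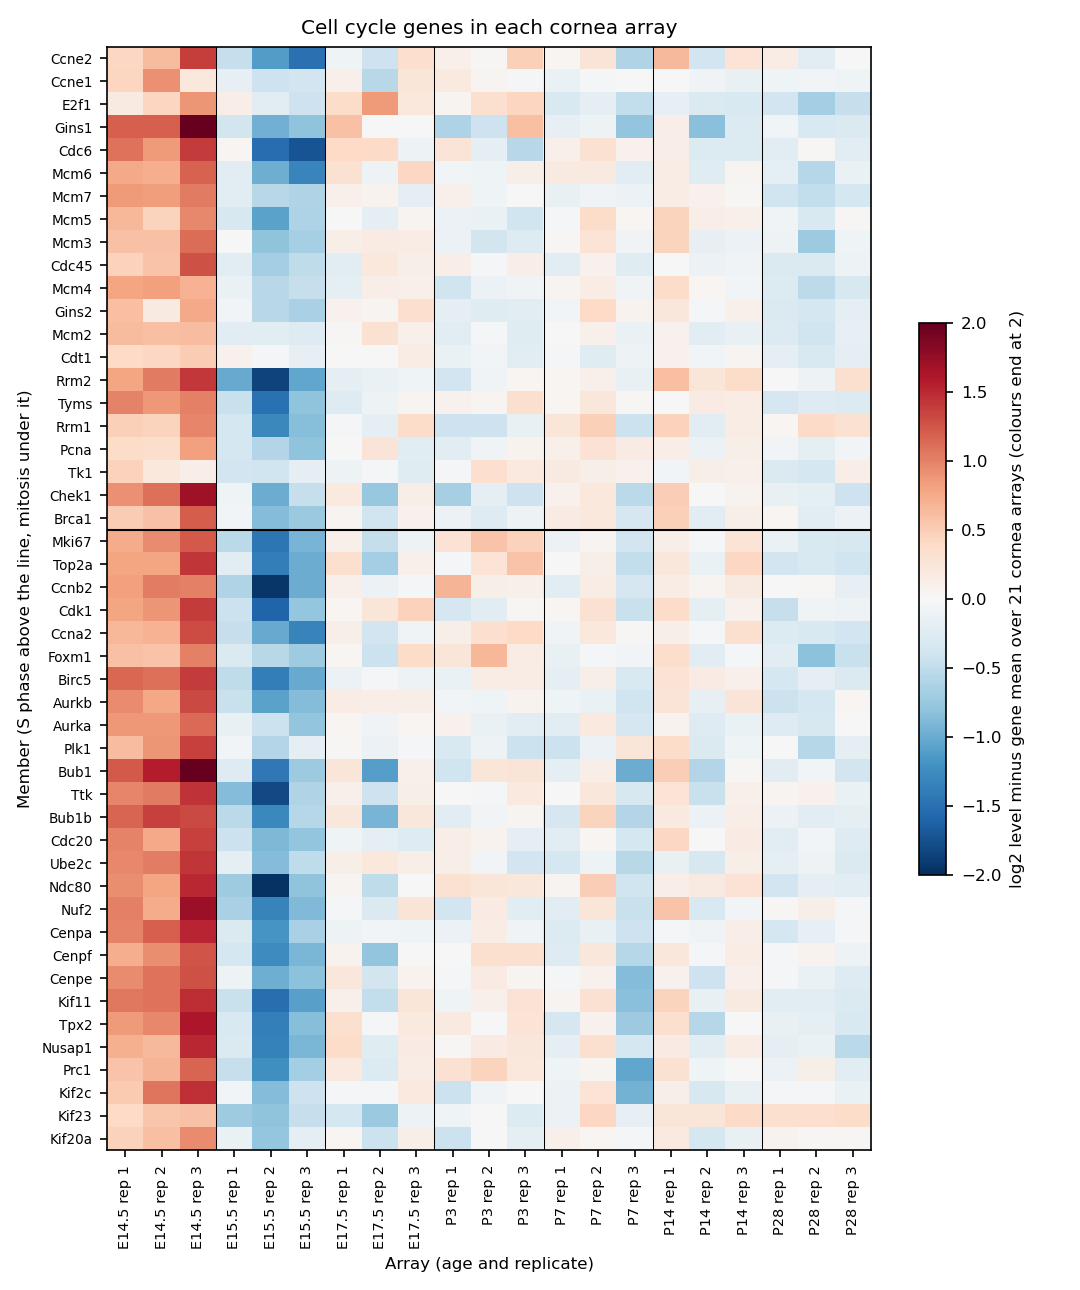
Log2 level of each member in each of the 21 cornea arrays, minus the gene's mean over those arrays (colours end at 2), with S phase genes above the line and mitosis genes under it. E14.5 arrays are above the mean and E15.5 arrays under it for nearly every member, and replicate 2 of E15.5 has the lowest median over the members.

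S phase and mitosis genes thus fell by unequal amounts. The median change of S phase genes minus that of mitosis genes was 0.49 log2, and 0.47 to 0.59 when single arrays were left out. The same difference taken in each array was -0.30, -0.28 and -0.33 at E14.5 and 0.23, 0.32 and 0.16 at E15.5, so the ages did not overlap. Such values were not particular to this step. The arrays were at -0.08, 0.36 and 0.01 at E17.5 and at -0.11, -0.25 and -0.31 at P3. The difference between the median changes was -0.30 from E17.5 to P3 and 0.34 from P3 to P7, steps in which no member was called. These medians over a chosen list carry no test.

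Other listed cell cycle genes that are no members moved with them from E14.5 to E15.5, where 2.26% of all genes were called lower. Of 47 other S phase genes 27 fell, among them the licensing inhibitor Gmnn at -2.39 and the clamp loader subunit Rfc4 at -2.06. Of 54 other mitosis genes 38 fell, among them the kinetochore genes Cenpk at -2.60 and Cenpw at -2.48 and the kinase Pbk at -2.53. None of these lists had a gene that rose. Of 6 D cyclins and G1 kinases, 1 fell, Ccnd1 at -1.79. Of 17 E2F, pocket protein and MuvB factors 1 rose, the pocket protein Rbl2 at 1.22, and 1 fell, the MuvB subunit Lin9 at -1.22. None of 6 cyclin-dependent kinase inhibitors, 3 Myc genes and 11 reference genes was called, and the reference genes had a median of 0.01. The lens, red cell and retina genes that fell across the same step are given above, and their part in the changes of the cell cycle genes was not tested. Corneal genes went the other way, with 7 of 8 called higher.

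From E15.5 to E17.5 all 48 members had a positive change, with a median of 0.63, 0.60 for S phase and 0.79 for mitosis genes against 0.01 over all genes. Of these, 6 rose at the 2-fold limit, against 0.261% of all genes called higher, 10 passed the adjusted p alone, against 0.441%, and 31 members had no overlap between ages, against 13.6% of all genes. Those called were Cdc6, Mcm6 and Rrm2 of S phase and Cdk1, Ccnb2 and Ttk of mitosis. This count rests on single arrays. It was 0 without E15.5 replicate 2 and 19 without E15.5 replicate 1, and 0 when the 2 ages were fitted alone.

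Rrm2 went from 8.52, 7.67 and 8.49 at E15.5 to 9.35, 9.39 and 9.44 at E17.5, a rise of 1.17 ± 0.19 (SE, n = 3; adjusted p = 0.011 in limma). Ccnb2 reached 10.08, 9.86 and 9.96, a rise of 1.17 ± 0.22 (adjusted p = 0.02). Both genes were higher in every E17.5 array. Cdk1 reached 9.79, 9.98 and 10.21, a rise of 1.18. Cdc6 reached 8.20, 8.18 and 7.70, and its change of 1.29, the largest, came with an overlap, since E15.5 replicate 1 was at 7.84. Mcm6 rose by 1.04 and Ttk by 1.03. Bub1, the gene that had fallen most, read 9.14, 7.81 and 9.00 at E17.5, and its change of 0.54 did not pass. In E17.5 replicate 2 it was still in the range of E15.5. The skeletal muscle genes were also uneven here, with a summed intensity of 2280 to 25851 at E15.5 and of 8884 to 72996 at E17.5, and their part in these changes was not tested. Of the other lists, 2 of 54 mitosis genes rose, Cenpw and Pbk, the latter at 1.18, and no other S phase gene, D cyclin or inhibitor was called.

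**Figure D3:**
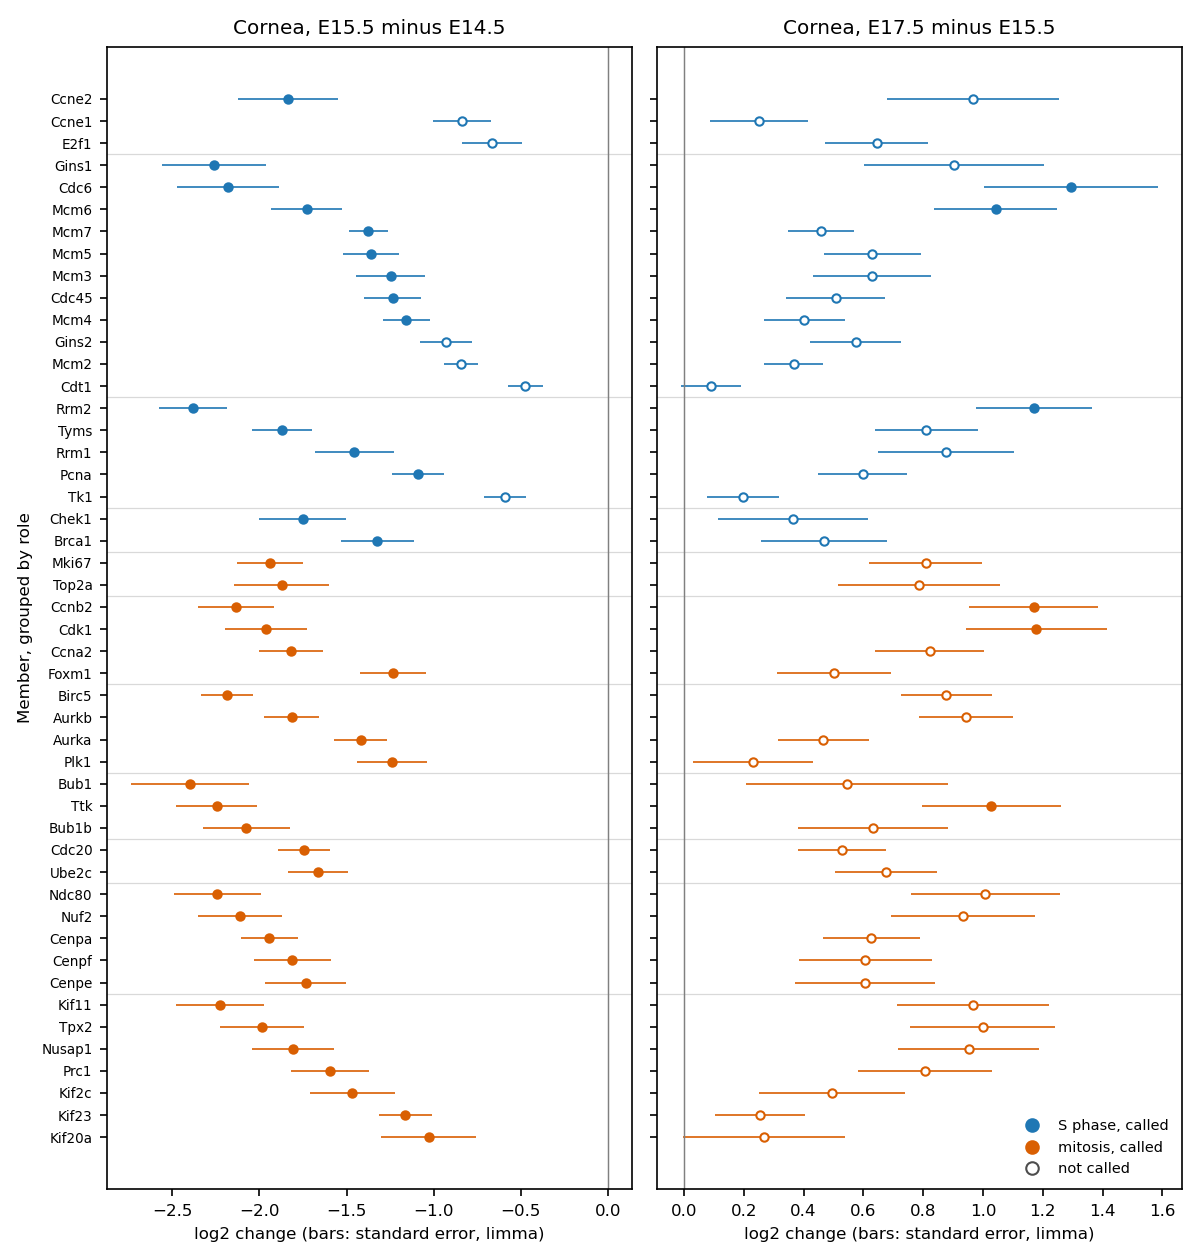
Log2 change of each member with its standard error (limma) from E14.5 to E15.5 and from E15.5 to E17.5, grouped by role. The first step runs from -2.40 (Bub1) to -0.48 (Cdt1) and the second from 0.09 (Cdt1) to 1.29 (Cdc6).

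After E17.5 no member was called in any step between neighbouring ages in limma. Of all genes, 1.43%, 1.42%, 0.015% and 4.47% were called in either direction from E17.5 to P3, to P7, to P14 and to P28. Unadjusted p was under 0.05 for 5, 6, 3 and 11 members in these steps. No share of all genes was taken by this looser rule. Changes ran from -0.42 (Cdk1) to 0.61 (Mki67) in the first of these steps and from -0.54 (Foxm1) to 0.14 (Kif20a) in the last. From P14 to P28, 42 of 48 members had a negative change, and 37 on the values as deposited. The adjusted p alone was passed by 3 members short of 2-fold, Mcm7 (-0.50), Mcm4 (-0.49) and Birc5 (-0.46). No share of all genes was taken for these counts. Among other regulators, the D cyclin Ccnd2 fell by 1.87 and the kinase inhibitor Cdkn1c by 1.92, and the pocket protein Rb1 rose by 1.28.

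Across the whole course, P28 arrays were lower than E14.5 arrays in the mean of all 48 members, and 33 fell, 10 of 21 S phase and 23 of 27 mitosis genes, against 5.54% of all genes called lower. The median change was -0.99 for S phase and -1.22 for mitosis genes. Bub1 read 8.68, 8.86 and 8.53 at P28, a fall of 1.81 ± 0.34 from E14.5 (SE, n = 3; adjusted p = 0.00015 in limma). Kif23, a motor of cytokinesis, was at 10.25, 10.41 and 10.44 at E14.5 and at 10.17, 10.19 and 10.23 at P28, a change of -0.16 that was not called and was the smallest. The count was 19 on the values as deposited and 25 to 37 when single arrays were left out. The comparison shares its E14.5 arrays with the first step. Top2a was called at -1.36, while its second probe set changed by 0.56. Other regulators differed in direction, since Cdkn1c fell by 3.12 and the inhibitor Cdkn1b rose by 1.78.

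Set against E15.5, whose arrays also enter the steps above, P28 was higher for 45 of 48 members, with a median of 0.54. Of these 5 rose, Rrm2 (1.38), Ccnb2 (1.13), Ttk, Rrm1 (1.07) and Ccne2 (1.00), against 4.9% of all genes called higher. Rrm2 read 9.53, 9.43 and 9.85 at P28, all above its E15.5 arrays. The 3 members with a negative change, led by E2f1 at -0.34, did not pass. The count was 1 without E15.5 replicate 2 and 10 without E15.5 replicate 1.

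In trachea at E18.5 the cell cycle genes were lower than in the arrays labelled lung. All 48 had a negative change, and 40 were called, 16 of 21 S phase and 24 of 27 mitosis genes, against 5.26% of all genes called lower. The median change was -1.25 for S phase and -1.43 for mitosis genes, against -0.06 over all genes. Rrm2 was at 12.27, 12.27 and 12.24 in the arrays labelled lung and at 10.14, 10.56 and 10.04 in trachea, a difference of -2.02 ± 0.19 (SE, n = 3; adjusted p = 1.1e-08 in limma). Mki67 was at 12.01, 11.91 and 11.80 and at 10.30, 10.20 and 9.86, and Kif11 at 11.69, 11.67 and 11.80 and at 9.96, 9.89 and 9.76. The groups were apart by more than 1 log2 unit in each of these genes. At the other end, Tyms differed by -0.20 with overlapping arrays and did not pass. Of the other lists 32 of 47 S phase and 38 of 54 mitosis genes were lower in trachea. The 11 thymocyte genes were lower there too, by a median of 5.94 on the log2 scale, and 10 of 10 skeletal muscle genes were higher. Their part in the difference was not tested.

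Set beside the cornea arrays of the same table, the members differed in order. Rrm2 in the arrays labelled lung exceeded every cornea array, the highest of which was 10.93 at E14.5, and Cdt1, at 9.96, 9.95 and 10.21, exceeded its highest cornea array of 8.28. Tyms, at 9.87, 9.88 and 9.93, and Birc5 lay within the range of their cornea arrays. Gins2 was under its cornea arrays, at 8.83, 8.75 and 8.76 in the arrays labelled lung and at 8.91 to 10.32 in cornea. These levels were not tested.

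In bladder the members were level from E14.5 to E16.5. No member was called in limma, against 0.341% of all genes called in either direction. By unadjusted p under 0.05 alone, a looser rule for which no share of all genes was taken, 2 members passed. Changes ran from -0.43 (Ube2c) to 0.31 (Foxm1), with 2 arrays at E14.5.

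From E16.5 to E18.5, where the older bladders are also Get1 +/-, all 48 members had a negative change, with a median of -0.64, -0.58 for S phase and -0.69 for mitosis genes against 0.05 over all genes. Age and genotype cannot be told apart in this step. Of 48 members 1 fell at the 2-fold limit, against 2.15% of all genes called lower, while 30 passed the adjusted p alone, 10 S phase and 20 mitosis genes, against 6.69% of all genes. In 39 members the arrays did not overlap, against 34.5% of all genes.

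The gene called was Ube2c, the ubiquitin-conjugating enzyme of mitotic exit, at 9.67, 9.68 and 9.36 at E16.5 and at 8.97, 8.61 and 7.71 at E18.5, a fall of 1.14 ± 0.26 (SE, n = 3; adjusted p = 0.005 in limma). E18.5 replicate 3, the array at 7.71, had a 5' to 3' ratio of Gapdh of 0.0748, against 0.437 and 0.456 in replicates 1 and 2. Its ratio of actin was 0.111, against 0.254 and 0.284. What these ratios mean for the fall was not tested. No member was called when the 2 groups were fitted alone. Leaving out single arrays gave 1 to 6 members, 6 without E18.5 replicate 1. Smaller changes were more even between arrays. Cdk1 went from 10.32, 10.27 and 10.17 to 9.32, 9.20 and 9.43, a change of -0.94 ± 0.14 (SE, n = 3; adjusted p = 0.00012 in limma). Chek1 went from 8.77, 8.81 and 8.70 to 8.08, 7.59 and 7.94, a change of -0.89. Both genes had all older arrays under all younger ones. Ccne1 and Bub1, both at -0.97, were also just short of 2-fold, and Ndc80 had the smallest change, at -0.07. Of the other lists, 3 of 46 S phase genes fell, among them Dbf4, the activator of the kinase that fires origins, at -1.21. Of 55 other mitosis genes 7 fell, among them the cohesin protector Sgo2a at -1.34 and the midbody gene Cep55 at -1.30. The kinase inhibitor Cdkn1a rose by 2.16 and Ccnd2 by 1.24. Skeletal muscle genes also rose in the same step, with a summed intensity of 4466 to 6449 at E16.5 and of 12553 to 13586 at E18.5, and their part was not tested.

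**Figure D4:**
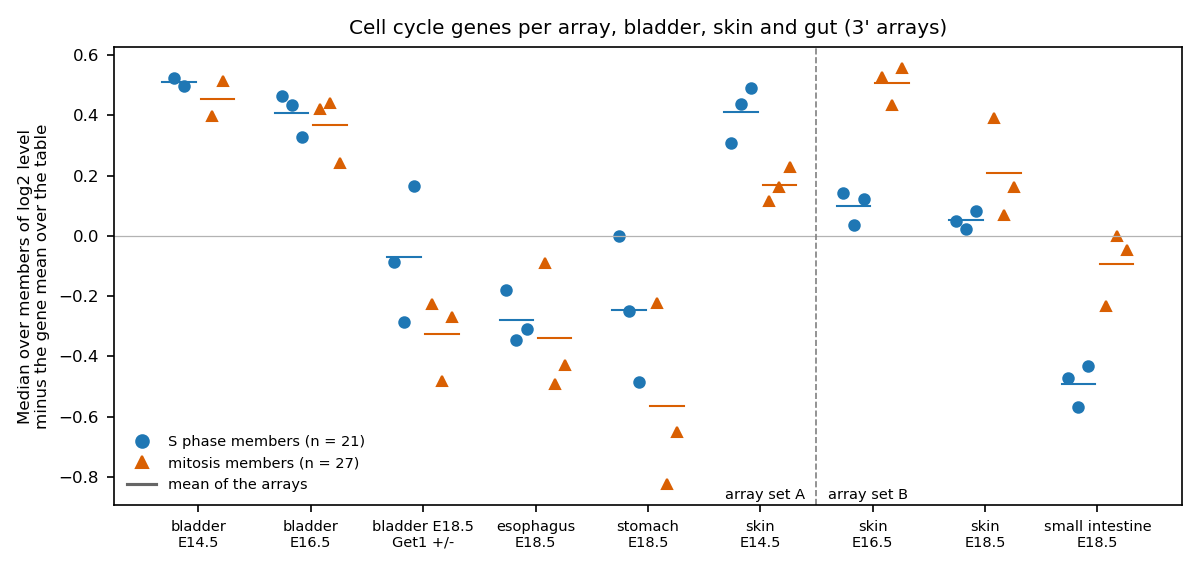
Median over the members of each gene's log2 level minus its mean over the 3' table, for S phase and mitosis genes in each array, with the set of bladder, esophagus, stomach and E14.5 skin (A) left of the dashed line and the other set (B) right of it, and the mean of the arrays as a line. Bladder arrays sit between 0.24 and 0.53 at E14.5 and E16.5 and between -0.48 and 0.17 at E18.5.

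At E18.5, bladder (Get1 +/-), esophagus and stomach, whose arrays belong to 1 set, gave no called member in any of their 3 pairs in limma, at 11.2%, 9.82% and 7.05% of all genes called in either direction for bladder against esophagus, bladder against stomach and esophagus against stomach. Adjusted p alone was under 0.05 for 4, 9 and 2 members in these pairs, and unadjusted p alone for 10, 13 and 8. Both rules are looser than that of the shares above, and no share of all genes was taken by them. An F test over these 3 organs, added after the data were seen, also called none of 48, against 17.3% of all genes. Mki67 for example read 9.65, 9.50 and 10.09 in bladder, 9.79, 9.70 and 9.48 in esophagus and 9.32, 8.86 and 9.33 in stomach. Bladder and esophagus overlapped, and stomach lay lowest.

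In skin from E16.5 to E18.5, both in the other array set, 1 member rose and 1 fell, against 2.44% and 2% of all genes called higher and lower. Aurkb, the kinase of the passenger complex, went from 6.19, 4.87 and 5.53 to 8.12, 8.47 and 8.08, a rise of 2.69 ± 0.27 (SE, n = 3; adjusted p = 7e-07 in limma). All its E16.5 arrays lay under the table median of 6.68. Its second probe set changed by 0.13. Gins2, a subunit of the replicative helicase, went from 8.20, 7.78 and 7.85 to 6.67, 7.09 and 6.70, a fall of 1.12 (adjusted p = 0.005), and its second probe set changed by -0.12. Both genes were therefore called from 1 probe set that its neighbour did not follow. With the mean of all probe sets 1 member was called. Leaving out single arrays gave 2 to 6 members, with 6 without E18.5 replicate 1.

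Skin and small intestine at E18.5 lie in the same set. There 4 of 48 members were higher in skin, a share near the 8.99% of all genes called higher, and none lower, against 10.2%. They were Aurkb (2.20), the helicase subunit Mcm2 (2.12), the mitotic transcription factor Foxm1 (1.17) and Kif23 (1.05). The second probe set had the same sign in all 4, as in 87.3% of all called genes with several. Kif23 was at 9.59, 9.38 and 8.97 in skin and at 8.36, 7.99 and 8.42 in small intestine. Mcm2 was uneven in skin, at 6.08, 8.34 and 7.73, above each of the 3 small intestine arrays. Small intestine replicate 4 held squamous and gastric genes, with Krt5 at 12.53 and Atp4b at 12.54, and little of the intestinal factor Cdx1 (4.00, against 11.18 in replicate 3). Without it 4 members were again called.

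Over all 5 organs at E18.5, an F test called 31 of 48 members, 14 S phase and 17 mitosis genes, against 71.1% of all genes, so the members' share was under that of all genes. The 10 organ pairs gave 141 calls among the members, and all but the 4 above came from pairs across the array sets, in which organ and set cannot be told apart. There skin against bladder, esophagus and stomach called 15, 16 and 18 members higher and 7 lower in each, against 46%, 48.9% and 48.3% of all genes in either direction. Bladder, esophagus and stomach against small intestine called 12, 12 and 10 higher and 10, 11 and 12 lower, against 45.2%, 48.8% and 45.6%.

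The same holds for skin from E14.5 to E16.5, since the E14.5 arrays belong to the set of bladder and the E16.5 arrays to the other. There 13 members were called higher and 12 lower, against 18.2% and 25% of all genes. Mcm2 went from 8.88, 9.07 and 9.16 to 7.52, 5.29 and 5.09, a change of -3.07, and its second probe set changed by 2.44. Mcm7, another subunit of the same ring, went from 8.36, 8.32 and 8.55 to 11.15, 11.10 and 11.07, a change of 2.70. Of its other 3 probe sets 2 changed by 1.80 and 2.96 and 1 by -0.87. Probe sets of 1 gene thus moved in opposite directions.

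Of the 48 members, 35 had several probe sets, 101 in all. From E14.5 to E16.5 the changes of a gene's probe sets had both signs for 22 of the 35 in skin and for 21 of the 35 in bladder. They differed by over 1 log2 unit for 30 of the 35 in skin and for 1 of the 35 in bladder, where both ages lie in 1 set. The median span between a gene's highest and lowest change was 2.29 in skin and 0.39 in bladder, and the widest were 6.47 (Mcm3) and 1.22 (Cenpa). S phase genes had a median change of -0.10 and mitosis genes of 0.51 in skin, a difference of -0.61 log2. This difference, too, lies across the array sets.

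**Figure D5:**
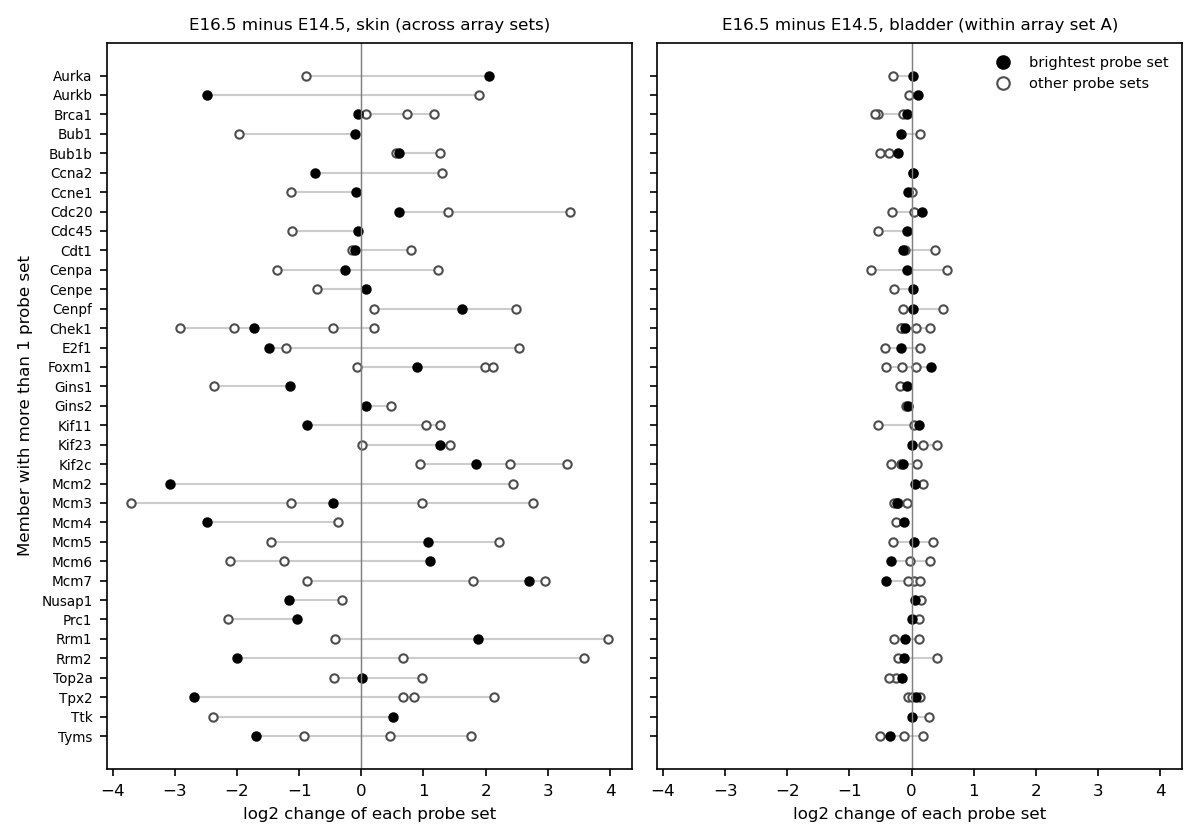
Log2 change from E14.5 to E16.5 of each probe set of the 35 members with several, in skin (left, across the array sets) and bladder (right, within 1 set). In skin the probe sets of a gene spread by a median of 2.29 and in bladder by 0.39.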

How the data were processed

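Total RNA was measured on 53 Affymetrix arrays in 2 tables. The deposited values are linear intensity values per probe set. The submitters' processing notes name PLIER 2.0 and Affymetrix Expression Console 1.1.1, and whether arrays were normalized to each other was not given in the sources used here. Array medians of the deposited intensity ran from 178.57 to 272.845 (Gene ST) and 24.78 to 49.3 (3' type), so values were quantile-normalized within each table as log2(intensity + 16), which understates changes of dim genes. Gene names came from GEO's platform annotation, and only probe sets with 1 gene were used (Gene ST, 21789 of 35556 had 1 gene; 3' type, 34958 of 45101). Each gene was read from its brightest probe set.

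Tests used limma 3.58.1 (R 4.3.3; lmFit, eBayes) over all groups of a table, two-sided, with Benjamini-Hochberg adjustment over all genes, and were tested on simulated data. The members and gene lists were chosen with earlier results of these data known. All members could be named, with array values for called members of largest change in each role, for members moving against the median and for those called in no comparison; of the other lists, up to 4 called genes. Groups come from the labels. By the data alone, replicate numbers were taken to pair arrays only for cornea P28 against P14 (correlations 0.133 to 0.242), where a block changed no call. No label pairs those arrays. Esophagus and stomach arrays share numbers in their titles and correlated at 0.0644 to 0.130. Trachea and the arrays labelled lung share them too and correlated at -0.0714 to -0.0124. Promoter sequences are from RefSeq (GRCm38.p6). Alternatives were other normalization, pseudocount, filters, probe set rule, moderation, samples, fold limit, block and single arrays left out.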

Additional observations from a re-analysis of the deposited data

Results flagged for a closer look

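The change of the members from E14.5 to E16.5 differed between skin and bladder by an interaction contrast in limma. It called 24 of 48 members, 12 higher and 12 lower in skin than in bladder, against 42.2% of all genes called in either direction, so the share of members was near that of all genes. The largest differences were -3.13 log2 for Mcm2 (adjusted p = 0.0011) and 3.11 for Mcm7 (adjusted p = 1.3e-09), 2 subunits of 1 helicase ring. The second probe set of Mcm2 gave 2.26 and the second brightest of 4 of Mcm7 gave -0.91. E14.5 and E16.5 skin arrays belong to different array sets and the bladder arrays to 1, so this difference and the array set cannot be told apart. By their titles, the first 2 of the E14.5 skin arrays may be 1 sample, and both held intestinal genes (Apoa1 at 13.06 and 13.05 against 5.38 in replicate 3).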

How the results depend on the processing

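In cornea, E15.5 against E14.5 kept its count within 1.5 times in every alternative tried, with 39 to 43 members when single arrays were left out (0.470 to 0.593 for the median of S phase minus mitosis genes). E17.5 against E15.5 had 2 called members as deposited, 0 with only the groups compared, 3 with the replicate block, 10 without the fold limit, and 0 to 19 with single arrays left out (-0.327 to -0.0589 for S phase minus mitosis). Without the fold limit P3 had 1 member, P7 1, P28 against P14 3 and P28 against E15.5 22. No share of all genes was taken by that rule for these comparisons. P28 against E15.5 had 8 members at a pseudocount of 1 and 1 to 10 with single arrays left out. P28 against E14.5 had 19 as deposited, with 0.139 for S phase minus mitosis, and 25 to 37 with single arrays left out (0.200 to 0.352). The test over all 7 ages gave 39 to 43 with single arrays left out, and 18 without all E14.5 arrays. Trachea gave 39 to 40 (0.0634 to 0.229).

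Bladder E18.5 had 4 members at a pseudocount of 1, 0 with only the groups compared, 30 without the fold limit, and 1 to 6 with single arrays left out. Bladder E16.5 against E14.5 had 0.00701 for S phase minus mitosis with the mean of all probe sets, and -0.106 to -0.0634 with single arrays left out. Skin E18.5 had 1 with the mean of all probe sets, 9 without the fold limit, 1 within the array set, chosen after the data were seen, and 2 to 6 with single arrays left out. Skin E16.5 gave 24 to 25, and for S phase minus mitosis -0.575 with the mean of all probe sets, -0.659 without Ccna2, Mki67 and Top2a, and -0.708 to -0.570 with single arrays left out. The interaction gave 22 to 25, the 5 organs 30 to 33 and the pairs 139 to 144, or 244 without the fold limit. No share of all genes was taken without the fold limit for skin E18.5 or for the pairs. The bladder E16.5 value of S phase minus mitosis, -0.0878 with the brightest probe set, thus changed sign with the mean of all. The replicate block changed no other count by over 1.5 times. The cause was not tested in any of these, apart from settings that use fewer arrays or a looser rule. Signal over background limits dim members.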
